A study of Mus musculus with 4 samples.

Results

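The mouse genes whose symbols start with Kcn, which encode the pore-forming and auxiliary subunits of potassium channels, were taken from the deposited gene tables by symbol, without Kcnj13. They came to 94 of the 22328 genes listed, under 93 symbols, since Kcnb2 had 2 rows. Read counts were compared between hippocampus and the HT22 cell line, and between choline-rich and control conditions within each. The hippocampus libraries came from the offspring groups F1m-CON and F1m-GCS, for which the labels give an age of 2 months at behavioural testing. Their dams ate chow with choline chloride at 1.1 g/kg (F1m-CON) or 5 g/kg (F1m-GCS) from embryonic day 9 to delivery, and all offspring ate a basal diet after birth. HT22, an immortalized mouse hippocampal line labelled as hippocampal neuron cells, was cultured for 48 h with 5 µM (HT22-CON) or 70 µM (HT22-SUP) choline chloride. Each of the 4 groups had 1 poly(A)-selected RNA library, and the labels do not say whether a hippocampus library held 1 animal or several. There is therefore no spread between replicates and no test of a condition. Differences are log2 ratios of scaled counts, with a 95% interval that covers counting error only. The interval takes reads as independent molecules, which they are not, so it is if anything too narrow.

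Potassium channels let potassium ions leave or enter a cell along their gradient, which sets the resting potential and ends action potentials. Voltage-gated (Kv) channels open on depolarization, inward rectifiers (Kir) and two-pore-domain (K2P) channels carry resting current, and KCa channels open with intracellular calcium. Silent Kv modifier subunits pass current only together with other Kv subunits, and auxiliary subunits alter the trafficking or gating of the pore. In the hippocampus, neurons of different fields and glia use different sets of these genes.

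By class, the rows were 31 Kv pore-forming genes (Kcna, Kcnb, Kcnc, Kcnd, Kcnh, Kcnq), 10 Kv modifiers (Kcnf, Kcng, Kcns, Kcnv), 14 Kir (Kcnj), 14 K2P (Kcnk), 8 KCa channels and relatives (Kcnma, Kcnn, Kcnt, Kcnu) and 17 auxiliary genes (Kcnab, Kcne, Kcnip, Kcnmb, Kcnrg). The libraries held 31175015 (F1m-CON), 30265820 (F1m-GCS), 18305096 (HT22-CON) and 13192007 (HT22-SUP) reads in genes. The channel genes took 183562, 181028, 5551 and 4652 of these, or 5888, 5981, 303 and 353 per 1000000 reads in genes. At least 1 read was counted for 89, 88, 62 and 74 of the 94 rows. In F1m-CON and F1m-GCS, 12 pan-neuronal markers summed to 11530 and 11529 scaled counts per 1000000 (CPM). In HT22-CON and HT22-SUP the same markers summed to 331 and 407 CPM, which is 2.87% and 3.53% of the hippocampus level, although the cells are labelled neuronal. Of these markers, Rbfox3 had 15 and 33 reads in HT22 cells against 8635 and 8463 in hippocampus. A list of 8 fibroblast and meninges markers stood at 684% and 567% of the hippocampus level in HT22 cells, and 5 of them, led by the collagens Col1a1, Col1a2 and Col3a1, were high there by the 4-fold rule given below. The other 3, Igf2, Ptgds and Lum, were high in hippocampus.

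Promoters are shown first for the genes on which the comparisons turn. Kcnn4 and Kcna4 were the channel genes with the highest levels in HT22 cells, Kcna2 is a relative of Kcna4 that was high in hippocampus, and Kcnh7 was the one gene above 1.5-fold in both choline-rich libraries. The sequences are from RefSeq on GRCm38.p6, 300 bases each (250 before and 50 from the annotated start), 5′ to 3′ on the gene's strand, with each CG dinucleotide, the substrate of DNA methylation, in capitals.
Kcnn4: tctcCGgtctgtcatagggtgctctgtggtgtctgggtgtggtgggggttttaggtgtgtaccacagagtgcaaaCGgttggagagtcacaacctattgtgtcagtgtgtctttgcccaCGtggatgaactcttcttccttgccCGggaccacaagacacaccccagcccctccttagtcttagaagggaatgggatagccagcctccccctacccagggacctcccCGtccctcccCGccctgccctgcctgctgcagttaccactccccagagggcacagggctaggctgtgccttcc
Kcna4: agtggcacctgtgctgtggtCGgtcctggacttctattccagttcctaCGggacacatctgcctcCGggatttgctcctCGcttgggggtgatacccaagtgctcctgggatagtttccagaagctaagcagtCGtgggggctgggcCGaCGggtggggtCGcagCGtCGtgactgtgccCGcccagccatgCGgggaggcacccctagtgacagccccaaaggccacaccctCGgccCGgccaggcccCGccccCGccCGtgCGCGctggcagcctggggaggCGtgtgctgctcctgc
Kcna2: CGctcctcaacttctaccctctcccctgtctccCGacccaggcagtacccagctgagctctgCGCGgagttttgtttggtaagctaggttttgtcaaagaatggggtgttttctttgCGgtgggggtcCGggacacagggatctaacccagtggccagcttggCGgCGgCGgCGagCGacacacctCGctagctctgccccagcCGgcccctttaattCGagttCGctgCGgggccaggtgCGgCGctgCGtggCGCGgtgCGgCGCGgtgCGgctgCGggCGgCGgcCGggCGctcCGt
Kcnh7: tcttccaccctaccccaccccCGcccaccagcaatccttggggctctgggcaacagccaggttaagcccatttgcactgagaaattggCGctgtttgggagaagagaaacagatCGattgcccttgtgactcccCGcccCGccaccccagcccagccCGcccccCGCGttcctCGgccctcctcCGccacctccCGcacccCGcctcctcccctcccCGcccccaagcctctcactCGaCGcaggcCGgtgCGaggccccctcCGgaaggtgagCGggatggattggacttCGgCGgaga

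The positions are chr7:24370013-24370312 (plus strand) for Kcnn4, chr2:107290339-107290638 (plus) for Kcna4, chr3:107101317-107101616 (plus) for Kcna2 and chr2:63184238-63184537 (minus) for Kcnh7. The motif CG, which reads the same on both strands, occurred 6 times in the Kcnn4 window, 20 in Kcna4, 31 in Kcna2 and 21 in Kcnh7. Of 32851 promoters of the same length, 56.4%, 26.5%, 10.6% and 24.8% held at least that many. Kcnt2, at 12, and Kcna5, at 4, stood at 39.6% and 68.6%. RefSeq promoters matched 68 of the 93 symbols. The 53 symbols with a single promoter had a median of 12 CG and a range of 0 to 49, and the median of all promoters was 7. No methylation was measured in these libraries, so these counts describe the sequence only.

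Most channel genes that could be counted were far higher in the tissue than in the line. A gene was called high in hippocampus when the lower of the 2 hippocampus libraries stood at least 4-fold above the higher of the 2 HT22 libraries, with counts under 3 set to 3, among genes with at least 50 reads in 1 library. By this rule 69 of 76 measured channel genes were high in hippocampus, where 27.2% of all 14012 measured genes were. Conversely, 1 of 76 was high in HT22 cells, against 12.6% of all measured genes. By class, 25 of 27 Kv pore-forming genes, 8 of 9 modifiers, 10 of 11 Kir, 8 of 9 K2P, 7 of 8 KCa and relatives and 11 of 12 auxiliary genes were high in hippocampus. Of the 76, 12 reached 50 reads in an HT22 library, and no Kir or modifier gene did. The others were measured only through hippocampus, where most of them were high, so these shares are partly built in by the read minimum. In HT22 cells 18 of the 94 rows had no read in either library, where 3 reads, the limit that a count of 0 allows, correspond to 0.156 CPM in HT22-CON and 0.218 CPM in HT22-SUP. In a bulk tissue library, fewer cells of a type and less RNA per cell cannot be told apart.

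**Figure D1:**
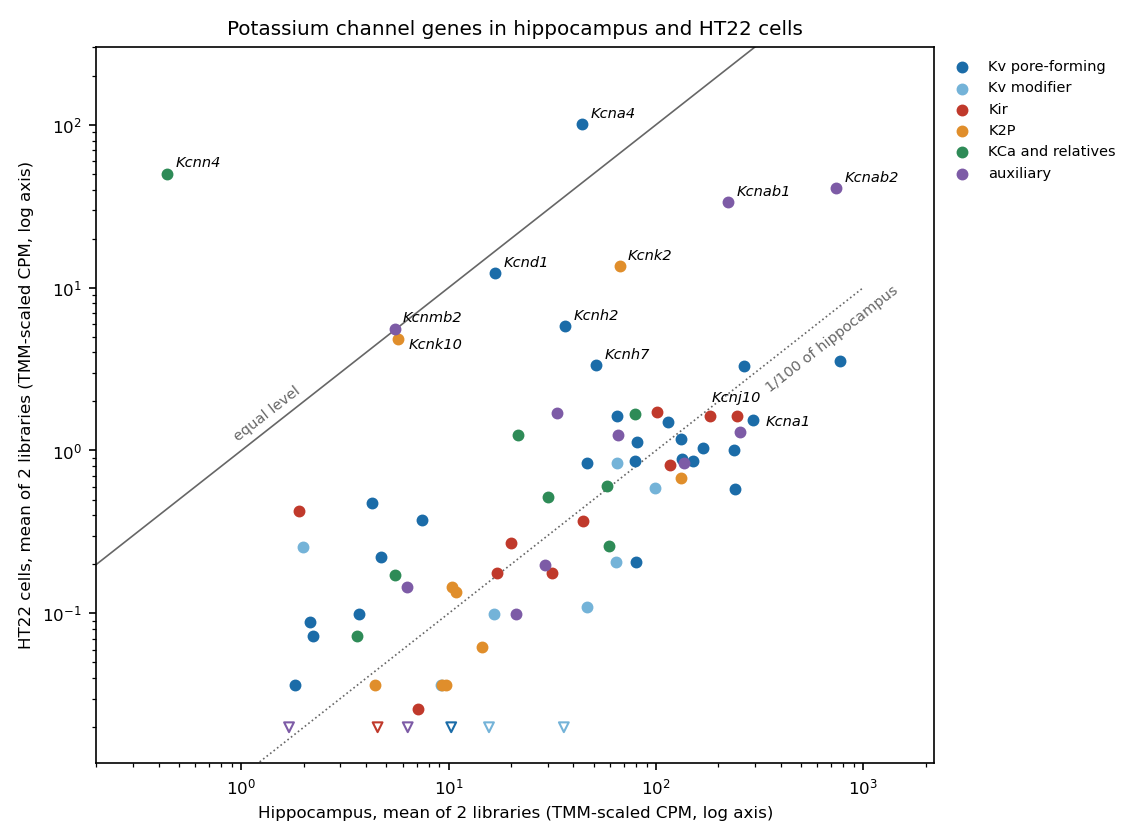
Mean TMM-scaled CPM of the measured potassium channel genes in the 2 hippocampus libraries (horizontal, log axis) and the 2 HT22 libraries (vertical, log axis), coloured by class. Open triangles at the bottom are genes with 0 reads in both HT22 libraries. Kcnn4 and Kcna4 lie clearly above the line of equal level, Kcnmb2 (103% and 101%) lies on it, and most genes lie far below it, many near the dotted line at 1/100 of the hippocampus level.

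To compare levels between genes, reads per kilobase of coding length per 1000000 reads, scaled by TMM over the 4 libraries (RPKM), were computed from the counts. The labels do not say whether reads in untranslated regions were counted. If they were, genes with long untranslated regions would stand too high on this scale, so the order of genes holds only for reads per coding base. In hippocampus the highest level belonged to an auxiliary gene, Kcnab2, a cytoplasmic β-subunit of Kv1 channels, at 656 RPKM in F1m-CON and 628 in F1m-GCS. Kcnip2, a calcium-binding partner of Kv4 channels, stood at 326 and 298. Further leading genes were the astrocytic inward rectifier Kcnj10 at 221 and 208, Kcna1, a Kv1 pore of axons, at 188 and 206, and the β-subunit Kcnab1 at 190 and 179. Kcna1 and Kcnab1 changed order between the libraries. These genes were among the leading ones in both libraries.

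Within the Kv pores, Kcnc1, a Kv3 channel of fast-firing neurons, stood at 134 RPKM in F1m-CON and 136 in F1m-GCS. Kcnq3, a Kv7 pore, had 90.2 and 112 RPKM. The leading modifiers were Kcnf1 at 64.6 and 65.2 RPKM, Kcnv1 at 42.6 and 42.8, Kcng1 at 39.4 and 43.3 and Kcns2 at 33.7 and 30.8. Modifiers therefore stayed below the leading pores, and none reached 70 RPKM. After Kcnj10, the Kir genes were led by the G protein-gated subunits Kcnj3 at 117 and 126 RPKM and Kcnj9 at 100.4 and 98.0, and by Kcnj4 at 75.9 and 74.7. Among K2P genes, Kcnk1 had 140 and 121 RPKM and the mechanosensitive channel Kcnk2 had 54.3 and 50.1. The next of the class, Kcnk3, an acid-sensitive leak channel, was at 11.8 and 11.7 RPKM, and Kcnk9, its close relative, at 9.18 and 8.77. KCa levels were lower: the big-conductance channel Kcnma1 had 20.03 and 26.2 RPKM, the small-conductance channels Kcnn2 and Kcnn1 had 23.0 and 23.9 and 12.6 and 14.2, and the sodium-activated Kcnt1 had 14.8 and 16.5. Among the other leading auxiliary genes Kcnip3 stood at 158 and 162 RPKM.

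Several of these genes lie side by side in the genome with unequal levels. Per the deposited mm10 coordinates, Kcna3 and Kcna2 on chromosome 3 are 63.4 kb apart, and their mean hippocampus levels were 2.34 and 30.9 RPKM. Kcna10, 76.2 kb beyond Kcna2, was at 0.056. On chromosome 6 Kcna1 (197 RPKM) lies 62.5 kb from Kcna6 (49.8 RPKM), and the listed interval of Kcna5 (126532553 to 126698192), whose level was 1.00 RPKM, encloses Kcna1. Kcnj9 and Kcnj10 are 11.9 kb apart on chromosome 1, at 99.2 and 215 RPKM. Kcnj16 and Kcnj2, 38.2 kb apart on chromosome 11, were at 25.1 and 15.5 RPKM. Of the neighbouring pairs within 200 kb, 3 held a gene at 0 RPKM in hippocampus (Kcnk16, Kcne1 and Kcnj1).

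The channel genes with under 50 reads in all 4 libraries numbered 18. They were the Kv pores Kcnq1 (27, 36, 6 and 13 reads in F1m-CON, F1m-GCS, HT22-CON and HT22-SUP), Kcnh8, Kcna10 and Kcna7, the modifier Kcnv2, the Kir genes Kcnj5 (19, 13, 0 and 0), Kcnj15 and Kcnj1, the K2P genes Kcnk5 (20, 25, 0 and 0), Kcnk7, Kcnk18, Kcnk15 and Kcnk16, and the auxiliary genes Kcne4 (31, 33, 1 and 0), Kcne3, Kcnrg, Kcnmb3 and Kcne1. No KCa gene was among them. Kcnj1, Kcnk16 and Kcne1, known from kidney, pancreas and heart or inner ear, had no read in any library.

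The exception in the other direction was Kcnn4, the intermediate-conductance calcium-activated channel known from blood cells, epithelia and fibroblasts. Kcnn4 (ENSMUSG00000054342, mm10 chromosome 7, 24370263 to 24385209, plus strand) had 18 and 8 reads in F1m-CON and F1m-GCS and 948 and 702 in HT22-CON and HT22-SUP. Its level was 81.7-fold higher in HT22-CON than in F1m-CON (95% counting interval 51.4 to 138) and 184-fold higher in HT22-SUP than in F1m-GCS (93.0 to 428). The HT22 and hippocampus libraries did not overlap, and at 38.6 and 39.9 RPKM Kcnn4 ranked second among channel genes in HT22 cells. It made the KCa class, at 3.82% and 4.47% of channel reads in hippocampus, 18.3% and 16.8% in HT22 cells.

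Kcna4, the Kv1.4 pore of fast-inactivating A-type current, was the channel gene with the highest HT22 level and one of the 6 high in neither system by the 4-fold rule. It had 1308 and 1275 reads in the hippocampus libraries and 1798 and 1479 in the smaller HT22 libraries, or 22.3 and 22.5 RPKM against 47.6 and 54.7. Its HT22 level was 212% and 244% of the mean hippocampus level, and the nearest libraries of the 2 systems differed 2.12-fold. Its Kv1 relatives in the line were near 0: Kcna1 had 12 and 34 reads, Kcna2 had 7 and 18, and Kcna6 had 5 and 20.

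The remaining genes of the 6 were Kcnd1, Kcng3, Kcnj14, Kcnk10 and Kcnmb2. Kcnd1, a Kv4 pore, had 462 and 517 reads in hippocampus and 237 and 168 in HT22 cells, or 73.8% and 73.2% of the hippocampus level. Kcnk10, a K2P channel of the same subfamily as Kcnk2, had 173, 163, 108 and 56 reads and stood at 98.1% and 71.2%. Kcnmb2, an inactivating β-subunit of the big-conductance channel, had 183, 140, 109 and 76 reads and stood at 103% and 101%, although the pore it attaches to, Kcnma1, had 14 and 36 reads in HT22 cells against 2037 and 2582 in hippocampus. Kcng3 (53, 63, 0 and 7 reads) and Kcnj14 (62, 49, 8 and 6 reads) were near the read minimum.

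A middle group of genes was high in hippocampus but clearly counted in HT22 cells. Kcnab1 had 642 and 463 HT22 reads, 15.0% and 15.1% of the hippocampus level. Kcnab2 had 811 and 539, or 5.71% and 5.31%. Kcnk2 had 247 and 195, or 19.2% and 21.2%. Kcnh2, the pore of the cardiac hERG current, had 123 and 72, or 17.6% and 14.4%. In RPKM the HT22 order was Kcna4, Kcnn4, Kcnab2 (36.7 and 34.1), Kcnab1 (27.7 and 27.9), Kcnk2 (10.0 and 11.1), Kcnmb2 (8.003 and 7.81), Kcnd1 (6.30 and 6.25), Kcnk10 (3.49 and 2.53) and Kcnh2 (1.83 and 1.501). Kcnn4 and Kcnab2 lay close together in HT22-CON, as did Kcnmb2 and Kcnd1 in both libraries. The line thus carried a short list: the 12 channel genes with at least 50 reads in 1 HT22 library took 92.6% of channel reads in HT22-CON and 84.8% in HT22-SUP.

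**Figure D2:**
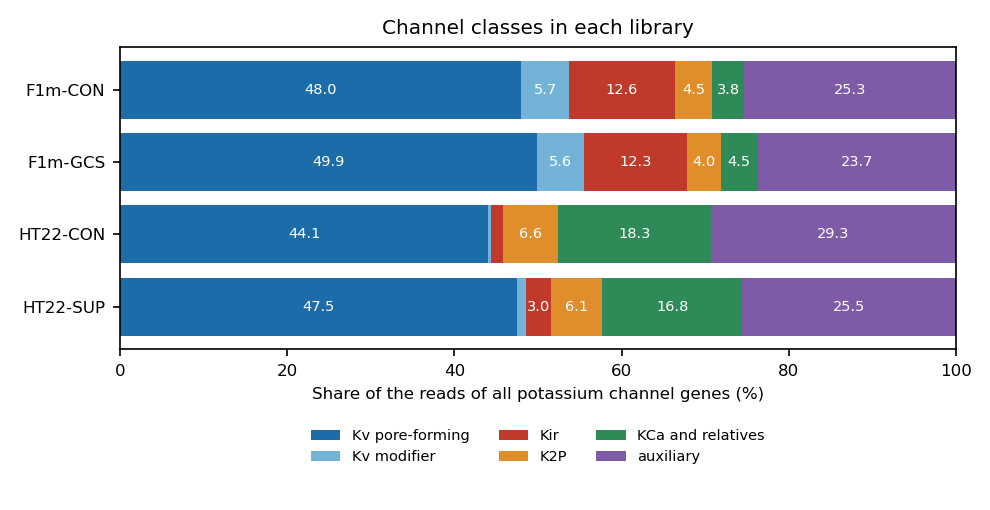
Share of all potassium channel reads (%) taken by each class in each of the 4 libraries. The KCa class is larger in the HT22 libraries (18.3% and 16.8%) than in the hippocampus libraries (3.82% and 4.47%), and the Kir and modifier classes are smaller.

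Summed by class, HT22-CON and HT22-SUP stood at 4.65% and 5.45% of the hippocampus level for all channel genes. The KCa class stood highest at 20.5% and 22.01%, followed by K2P at 7.18% and 7.81%, auxiliary genes at 5.56% and 5.68% and Kv pores at 4.18% and 5.28%. Kir genes stood at 0.545% and 1.33% and Kv modifiers at 0.221% and 0.991%. In HT22 cells most reads of these class sums came from 1 or 2 genes each. They were Kcnn4 for KCa, Kcnk2 and Kcnk10 for K2P, Kcnab1 and Kcnab2 for auxiliary genes and Kcna4 for Kv pores. No Kir or modifier gene reached 50 reads there. A list of 16 partner genes of these channels includes the Kv4 partners Dpp6 and Dpp10, the adhesion protein Cntnap2 and the Hcn pacemaker channels. Of the 16, 14 were measured, and all 14 were high in hippocampus. Only 2 of them reached 50 reads in an HT22 library. The summed level of the 16 in the HT22 libraries was 1.17% and 2.46% of that in hippocampus.

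In hippocampus, the F1m-GCS and F1m-CON libraries held nearly the same channel expression. Of 75 channel genes measured in this pair (at least 50 reads in 1 library), 2 were at least 1.5-fold higher in F1m-GCS with an interval that excluded 0, against 1.8% of all 13392 measured genes, and 1 was lower, against 0.904%. These shares put the channel counts near the background. The median log2 ratio was 0.003 over channel genes and -0.004 over all measured genes. Of the 75, 39 ratios lay above 0 and 36 below. Whole intervals lay above 0 for 19 channel genes and below 0 for 15, where 20.9% and 18.8% of all measured genes did.

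The 2 higher genes were Kcnh7 and Kcnt2. Kcnh7, a Kv11 pore of the ether-a-go-go family, had 1190 reads in F1m-CON and 1810 in F1m-GCS, a log2 ratio of 0.66 (0.55 to 0.77). Kcnt2, a sodium-activated channel related to Kcnt1, had 700 and 1072, a log2 ratio of 0.67 (0.53 to 0.81). Both have long coding sequences and transcripts of low GC content. Over all measured genes the ratios in this pair of libraries went with both properties, and across the channel genes with length only. The median over all genes moved from -0.09 in the shortest of 10 length groups to 0.11 in the longest. Across the 75 channel genes Spearman's rho with coding length was 0.44, and across all measured genes 0.35. With transcript GC content it was -0.02 and -0.26, and Kcnh7 and Kcnt2 stood at 39.6% and 36.6% GC. The genes share these 2 libraries, so these are descriptions. After the median of genes of like coding length was subtracted, Kcnh7 stood at 0.61 and Kcnt2 at 0.62, both still beyond 1.5-fold. With genes of like length and GC content they stood at 0.39 and 0.40, both under 1.5-fold.

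The lower gene was Kcna5, the Kv1.5 pore known from heart and vessels, with 74 reads in F1m-CON and 33 in F1m-GCS, a log2 ratio of -1.07 (-1.75 to -0.50). Corrected for length and GC content it stood at -1.05, so it alone stayed beyond 1.5-fold. Its total of reads is small, and its level in hippocampus was 1.37 and 0.63 RPKM. A list of 8 endothelium and pericyte markers had a median log2 ratio of 0.06, with 1 of 8 below 0 and sums of 429 and 461 CPM. The part of vessel cells in the Kcna5 ratio was not tested.

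**Figure D3:**
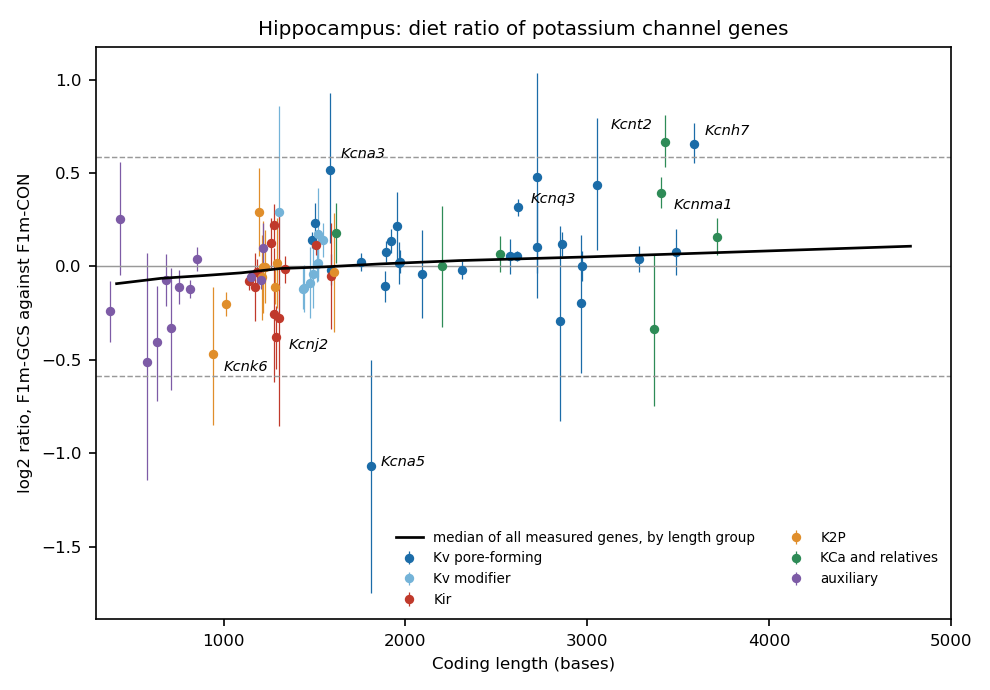
Log2 ratio of F1m-GCS to F1m-CON for the 75 measured potassium channel genes against coding length in bases, with 95% counting intervals. Dashed lines mark 1.5-fold and the black line joins the medians of all measured genes in 10 length groups; Kcnh7 and Kcnt2 lie above the upper line among the long genes and Kcna5 below the lower one.

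By class, the median log2 ratio in hippocampus was 0.06 for Kv pores (20 of 27 above 0), 0.01 for modifiers, -0.05 for Kir, -0.03 for K2P, 0.16 for KCa and relatives and -0.09 for auxiliary genes (9 of 12 below 0). Corrected for length and GC content, the medians were 0.04 for Kv pores, -0.01 for modifiers, -0.01 for Kir, -0.03 for K2P, 0.10 for KCa and relatives and -0.08 for auxiliary genes, so the modifier median turned in sign. The summed reads of a class gave log2 ratios of 0.26 (0.21 to 0.30) for KCa and relatives, 0.09 (0.08 to 0.10) for Kv pores, -0.06 (-0.08 to -0.04) for auxiliary genes and -0.13 (-0.17 to -0.08) for K2P. All class differences were therefore well under 1.5-fold. Most of the KCa difference in reads lay in Kcnma1 (2037 and 2582 reads) and Kcnt2 (700 and 1072), with coding lengths of 3408 and 3429 bases. The class sums were not corrected for length or GC content. Most of the K2P difference in reads lay in Kcnk1, with 4208 and 3528 reads and a log2 ratio of -0.20 (-0.27 to -0.14).

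Within channel complexes the pieces did not always lie on the same side of 0. The big-conductance pore Kcnma1 had 2037 and 2582 reads in F1m-CON and F1m-GCS, a log2 ratio of 0.40 (0.31 to 0.48). Its measured β-subunits lay below 0, Kcnmb4 with 214 and 155 reads at -0.41 (-0.72 to -0.11), Kcnmb2 with 183 and 140 at -0.33 (-0.66 to -0.01) and Kcnmb1 with 60 and 40 at -0.51 (-1.15 to 0.07). With the length and GC correction the values were 0.34, -0.34, -0.31 and -0.42, so pore and β-subunits stayed apart in sign. The corrected interval of Kcnmb2 (-0.65 to 0.007) included 0, as that of Kcnmb1 did without correction. Among the Kv7 pores, Kcnq3 had 7058 and 8465 at 0.32 (0.27 to 0.36), which the correction took to 0.05. Of the Kv4 pores, Kcnd1 lay furthest from 0, at 0.22 (0.03 to 0.40), or 0.23 (0.05 to 0.41) with the correction. The other Kv4 pores and the Kcnip partners lay closer to 0. Kcnd2 was at 0.08 (0.02 to 0.14), which turned to -0.08 (-0.14 to -0.02) with the correction. Kcnd3 was at 0.03 (-0.04 to 0.09) and Kcnip2 was at -0.12 (-0.17 to -0.07). Kcnd2, Kcnd3, Kcne2, Kcnmb4, Kcnmb1, Kcnj2, Kcnk6 and Kcnj8, and above them Kcna2, Kcna3, Kcna6, Kcna10, Kcnj16, Kcng3 and Kcnj14, are outside the rule for named genes and were chosen after their values were seen.

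Genes with a known home outside neurons were set beside markers of those cells. Kcnj10 of astrocytes had 7517 and 6859 reads, a log2 ratio of -0.08 (-0.13 to -0.03), which was -0.01 (-0.06 to 0.04) with the length and GC correction. The 8 astrocyte markers had a median of -0.06, with sums of 5309 and 5381 CPM. Kcne2, a small single-span subunit abundant in the choroid plexus, had 686 and 560 reads, a log2 ratio of -0.24 (-0.40 to -0.08), or -0.13 (-0.29 to 0.04) with that correction. Of 10 choroid plexus epithelium markers 9 lay below 0 and 2 were lower by 1.5-fold (Aqp1 and Steap1), with a median of -0.48 and sums of 2008 and 1721 CPM. Kcne2 and these markers thus lay on the same side of 0, and the part of choroid plexus in the Kcne2 ratio was not tested. The pericyte-associated Kcnj8, the pore of a vascular ATP-sensitive channel, had 148 and 119 reads at -0.26 (-0.62 to 0.10). Further from 0 were Kcnj2, a classical strong inward rectifier, at -0.38 (-0.55 to -0.21) with 675 and 500 reads, and Kcnk6 at -0.47 (-0.85 to -0.11) with 153 and 106. Of the 14 measured partner genes none passed 1.5-fold in this pair, and their median was 0.04.

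In HT22 cells, 12 channel genes could be compared between 70 and 5 µM choline. Of these, 3 were at least 1.5-fold higher in HT22-SUP, against 5.13% of all 10854 measured genes, and 0 were lower, against 2.89%. Whole intervals lay above 0 for 4 of the 12 and below 0 for none, where 22.4% and 32.7% of all measured genes did. The median log2 ratio was 0.03 over the 12 and -0.05 over all measured genes. The genes that make up most of the line's channel reads lay close to 0. Kcnn4, with 948 and 702 reads, was at 0.05 (-0.09 to 0.19), Kcnab1 at 0.01 (-0.16 to 0.19), Kcnd1 at -0.01 (-0.31 to 0.28), Kcnmb2 at -0.04 (-0.48 to 0.40) and Kcnab2 at -0.10 (-0.26 to 0.05). Kcnk2 was at 0.14 (-0.14 to 0.42), Kcnh2 at -0.28 (-0.73 to 0.14) and Kcnk10 at -0.45 (-0.96 to 0.02). Kcna4, with 1798 and 1479 reads in libraries of unequal depth, was at 0.20 (0.10 to 0.30), the one gene of this group whose interval excluded 0.

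**Figure D4:**
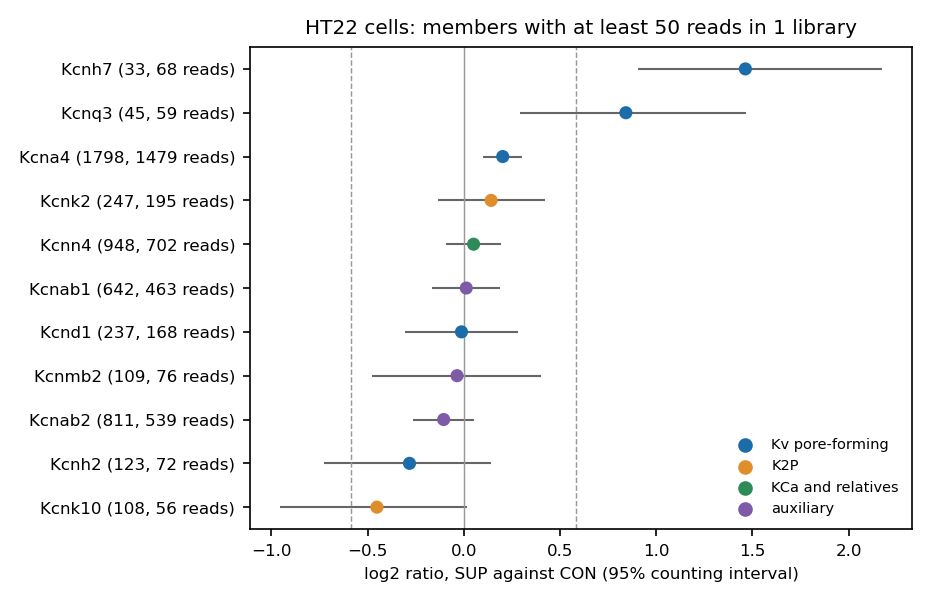
Log2 ratio of HT22-SUP to HT22-CON for 11 of the 12 potassium channel genes with at least 50 reads in 1 HT22 library, with 95% counting intervals and the reads in HT22-CON and HT22-SUP beside each name. Dashed lines mark 1.5-fold; Kcnh7 and Kcnq3 lie beyond the upper line and the other 9 shown lie between the lines.

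Among the 3 higher genes were Kcnh7 and Kcnq3, each counted at a low level in the line. Kcnh7 had 33 reads in HT22-CON and 68 in HT22-SUP, a log2 ratio of 1.46 (0.91 to 2.17). Kcnq3 had 45 and 59, a log2 ratio of 0.84 (0.29 to 1.47). As a share of the mean hippocampus level, Kcnh7 went from 3.34% to 9.64% and Kcnq3 from 0.883% to 1.62%. Both were high in hippocampus, and their levels in both HT22 libraries were small fractions of that in tissue.

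The same step from HT22-CON to HT22-SUP was seen over channel genes that were abundant in hippocampus and scarce in the line. There were 18 with at least 50 CPM in hippocampus and an HT22 level under 1/100 of it. In HT22-CON they had 215 reads together, 0.320% of the hippocampus level (95% Poisson interval 0.279 to 0.366), and in HT22-SUP 362 reads, 0.754% (0.678 to 0.835). The pooled log2 ratio was 1.24 (0.99 to 1.49), and 18 of 18 had a higher CPM in HT22-SUP. Of 671 other genes chosen by the same levels, 605 were higher there as well and 60 lower. These 671 genes stood at 0.321% and 0.768%, with a pooled log2 ratio of 1.26. The channel genes and these other genes had nearly the same shares in both libraries. Both sets were chosen for a mean HT22 level under 1/100 of hippocampus, which caps these shares. Their likeness is therefore partly built in by the choice. The 18 came from all classes, among them Kcna1 (12 and 34 reads), Kcnj10 (26 and 26), Kcnip2 (12 and 27) and Kcnk1 (8 and 13). The cause of this common low share and of its step was not tested.

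**Figure D5:**
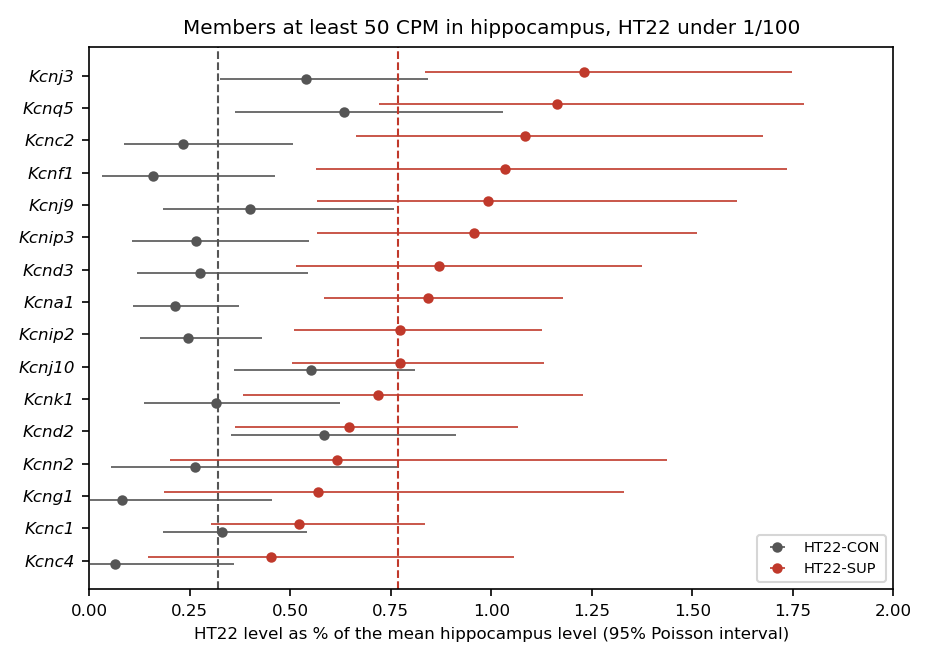
Level of 16 of the 18 potassium channel genes in HT22-CON (grey) and HT22-SUP (red) as % of its mean hippocampus level, with 95% Poisson intervals. The dashed lines mark the pooled shares of the 671 other genes chosen by the same levels, 0.321% and 0.768%; most intervals shown cross the line of their own library.

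Not every scarce channel gene followed that common share: Kcnh7 stood above it in both HT22 libraries, and Kcnj4, a strong inward rectifier of forebrain neurons, in HT22-SUP. Kcnj4 had 5 reads in HT22-CON and 44 in HT22-SUP against 3028 and 2885 in hippocampus, or 0.258% and 3.18% of the hippocampus level, with a log2 ratio of 3.12 (2.29 to 5.31). It missed the 50-read minimum and is not among the 3 genes counted. With a minimum of 10 reads, 20 of 40 channel genes were at least 1.5-fold higher in HT22-SUP, against 9.11% of all 12580 genes. Genes such as Kcnf1 (3 and 14 reads) and Kcnj4 reached 10 reads only in HT22-SUP. Passing the minimum and being higher there were thus partly the same event. These shares therefore do not show a rise particular to channel genes. Neuronal markers lay on the same side: 7 of 10 measured pan-neuronal markers were higher in HT22-SUP by 1.5-fold and 1, Tubb3, was lower, with a median log2 ratio of 1.33. Of the partner genes 2 were measured in HT22 cells, Ank3 (280 and 369 reads) and Dpp10 (23 and 51), and both were higher, at 0.88 and 1.54. The part of these markers in the channel ratios was not tested.

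Kcnh7 was the channel gene at least 1.5-fold higher in both pairs, at 0.66 in hippocampus and 1.46 in HT22 cells. The 2 pairs share no library. Over all measured genes Spearman's rho of the ratio was 0.35 and 0.22 with coding length, which is 3588 bases for Kcnh7, and -0.26 and 0.17 with GC content. Corrected for length alone Kcnh7 stood at 0.61 and 1.17, and for length and GC content at 0.39 and 1.16. Kcnt2 and Kcna5 could not be followed into the line, where they had 13 and 5 reads and 0 and 1.

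Some counts may hold reads of an overlapping gene. The library kit does not mark strand, so reads from a gene and from an antisense partner cannot be told apart. By the GENCODE annotation Kcna6 shares 1587 of its 1590 coding bases with Gm26673 on the other strand, Kcnj3 shares 660 of 1506 with Gm26794, and Kcnmb4 shares 336 of 633 with Kcnmb4os2. Kcnt2 shares 102 of 3429 and Kcnma1 282 of 3408.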

How the data were processed

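Poly(A)-selected RNA of 4 mouse libraries was sequenced in paired-end mode. Per the labels, the authors used Trim Galore for trimming, TopHat2 for alignment to mm10 (up to 2 mismatches, minimum mapping quality 4) and HTSeq for read counts; the submitters' processing notes also name CASAVA 1.8. The deposited read counts per gene were used, with the deposited coding length (99.8% of lengths are multiples of 3); the authors' RPKM and test columns were not. The members and lists were chosen with earlier results of these data known.

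Counts were scaled by TMM in edgeR 4.0.16 (R 4.3.3), per pair or over the 4 libraries, which moved hippocampus against HT22 by 0.13 on the log2 scale. Log2 ratios used a prior count of 2, with exact conditional (Clopper-Pearson) 95% intervals. The code was tested on simulated data. GC content came from the longest protein-coding GENCODE transcript, for 93 of 94 rows. Named are genes with at least 50 reads in an HT22 library, the 4 highest of each class by RPKM in hippocampus, and genes beyond 1.5-fold in a pair. Alternatives were other scalings (total reads, DESeq2 1.42.0 size factors), prior counts, read minimums and folds, and the length and GC corrections. Of the uniquely mapped reads, 79.4%, 79.0%, 72.9% and 63.1% were counted in genes. Some genes that this rule names are not reported here, and stay in the counts and class sums.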

Additional observations from a re-analysis of the deposited data

How the results depend on the processing

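With 1 library per group, all ratios hold counting error only, and differences between animals, cultures or library preparations cannot be told apart from the conditions. No paired analysis was possible because each group has a single library. In hippocampus the 3 channel genes beyond 1.5-fold became 1 with the length and GC correction and 1 at 2-fold, Kcna5 in both cases. In HT22 cells the 3 became 20 of 40 at a minimum of 10 reads, where 9.11% of all 12580 genes were higher, with a median of 0.93. Some genes passed that minimum only through HT22-SUP, where they were higher. The 3 became 0 of 6 at a minimum of 200 reads. They became 1 of 10, Kcnh7, when genes 20 times or more above the line in hippocampus were left out. At 2-fold between the nearest libraries, 2 genes were high in HT22 cells, Kcnn4 and Kcna4. The other recomputed counts stayed within 1.5 times those given, with 55 to 71 genes high in hippocampus. The median log2 ratio ran from -0.01 to 0.02 in hippocampus and otherwise from 0.0003 to 0.14 in HT22 cells. No named ratio changed sign while called. In HT22 cells 12 of the 94 channel rows reached 50 reads, so ratios there rest on few genes.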

Other observations

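Kcnrg, a regulator of Kv assembly, had 6 reads in F1m-CON and 31 in F1m-GCS and 5 and 1 in the HT22 libraries. Its log2 ratio in hippocampus was 2.09 (1.14 to 3.98), farther from 0 than that of any measured channel gene, on fewer reads than the 50-read minimum; it was chosen after its values were seen.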
